A study of Rattus norvegicus with 29 samples.

Results

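Livers of 5 male Sprague-Dawley rats given 2000 mg/kg pentamethylchromanol (PMCol) were compared with livers of 6 rats given vehicle, all killed on day 29. These 11 animals were taken by their labelled dose and day from the 29 of the series. PMCol is the chroman head group of vitamin E without the long phytyl tail. It was given by oral gavage once a day for 28 days in 1% methylcellulose in water, and the vehicle animals received the methylcellulose alone. The rats were Crl:CD animals of 6 to 7 weeks of age when housed, with no transgene or surgery named in the labels. Each animal gave RNA of the left liver lobe for 1 Affymetrix whole-transcript array, so a value is an average over all cells of that piece. For comparison, 6 rats were given 200 mg/kg for the same 28 days. A further 6 rats given 2000 mg/kg and 6 given vehicle were killed on day 8 after 7 doses. The array names 1 gene for 15097 of 27342 transcript clusters, sets of probes against 1 transcribed region, and these hold 14324 genes.

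Hepatocytes clear foreign phenols in steps. Cytochromes P450 and reductases change the molecule, transferases attach glucuronate, sulfate or glutathione, and pumps of the ABC family export the product. The transcription factor NRF2, released from KEAP1 by electrophiles, switches on enzymes of glutathione and quinone metabolism through antioxidant response elements. The nuclear receptors CAR and PXR switch on P450s of families 2B and 3A, carboxylesterases and transport genes. ATF4 is translated when amino acids run short or proteins misfold, and it raises genes of amino acid supply. Stellate cells lie between hepatocytes and sinusoids, store retinol and make much of the matrix.

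A value below is a log2 signal relative to the cluster's median over the 29 arrays. It carries no absolute level, so genes are compared only by their differences between animals. A difference is the mean of the treated minus the mean of the vehicle animals in log2 units ± SE from a limma fit (n = 5 and 6), where 1 is 2-fold. The SE rests on 1 moderated spread per cluster shared by the 5 groups of the 29 arrays. It need not follow the spread of the 11 animals printed beside it. A gene is said to rise or fall where its Benjamini-Hochberg adjusted p, taken over all clusters, is under 0.05. By this rule 26.0% of the 14324 genes changed: 2129 rose, which is 14.9%, and 1600 fell, which is 11.2%. Changes of at least 2-fold were seen for 112 risen and 86 fallen genes, 0.782% and 0.600%. The lowest treated animal lay above the highest vehicle animal for 1155 genes, 8.06%, and the highest treated below the lowest vehicle for 906, 6.33%. The median difference over all genes was 0.0015.

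Before the results, 2 arrays need naming. After removal of group means, vehicle replicates 1 and 2 had SDs over clusters of 0.215 and 0.169, while the other 4 vehicle arrays lay between 0.116 and 0.123 and the treated arrays between 0.116 and 0.134. Without both of them 5780 of the 27342 clusters were called in place of 5910, 21.6%. Genes given below lost no call without the pair unless said. The decimals of the deposited values show a stored log2 value of 8 or more in every animal for the hepatocyte markers Alb, Apob and Cps1. Ttr, Hnf4a and Asgr1, also set as hepatocyte markers, are not reported on this point. Such values held for 7529 of the 27342 clusters, so they do not by themselves identify the tissue. Among the genes with at least a 2-fold change, the 5 treated animals stood at 87.2%, 98.9%, 93.8%, 108% and 115% of the group difference in the median gene.

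**Figure D1:**
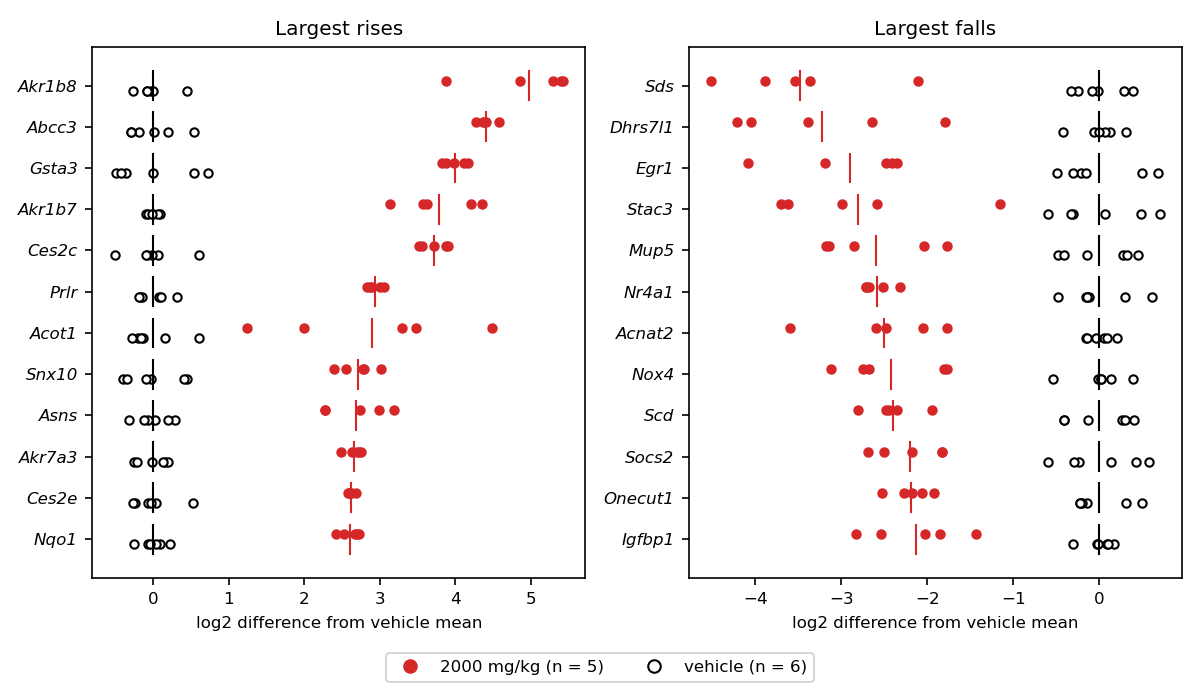
Values of single animals for the 12 genes with the largest rise and the 12 with the largest fall whose groups did not overlap, as log2 difference from the vehicle mean (horizontal axis). Genes with provisional symbols (beginning with LOC, RGD, MGC or a numbered Gm) were left out. Filled points are the 5 treated animals, open points the 6 vehicle animals and vertical ticks the group means; for Akr1b8 the treated mean lies 4.97 above the vehicle mean and for Sds 3.48 below it.

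The promoters of several genes of these pathways carry the elements named above, and 5 of those that rose are shown because their letters can be set beside the differences. Each stretch comes from the 300 bases around the RefSeq start (250 before, 50 after, build GRCr8), 5′ to 3′, with the match to TGACNNNGC on either strand in capitals.
Gsta3: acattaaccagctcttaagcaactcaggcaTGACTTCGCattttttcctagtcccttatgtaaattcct
Gstp1: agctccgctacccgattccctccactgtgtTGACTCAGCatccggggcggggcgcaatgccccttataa
Me1: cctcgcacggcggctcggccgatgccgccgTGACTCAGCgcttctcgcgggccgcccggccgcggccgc
Gpx2: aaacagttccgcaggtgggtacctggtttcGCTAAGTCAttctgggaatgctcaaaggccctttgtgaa
Gclm: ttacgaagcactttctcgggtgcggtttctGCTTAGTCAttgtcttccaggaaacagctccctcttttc
They lie at chr9:31154942-31155010 (plus strand), chr1:210769728-210769796 (minus strand), chr8:96540373-96540441 (minus strand), chr6:101230008-101230076 (minus strand) and chr2:213031933-213032001 (plus strand). This core was present in 7 of 31 promoters of risen genes from the lists of NRF2 enzymes, glutathione genes, glutathione transferases and aldo-keto reductases, 22.6%. It was present in 12.2% of all 27457 promoters and in 13.7% of the 11806 promoters of measured genes, from which these sets were drawn. Among genes that rose at least 2-fold 17 of 85 promoters held it, and among those that fell at least 2-fold 13 of 67, or 19.4%. A match describes letters and not a bound site, and response elements farther away are outside this window.

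Most measured glutathione transferases rose. Gsta3, an alpha-class transferase active on steroids and peroxides, gave 1.29, 1.35, 1.45, 1.58 and 1.64 in the treated animals. The vehicle animals ran from -3.02 to -1.81 with a median of -2.71. The groups lay far apart, and the difference of 4.00 ± 0.18 is a 16-fold rise (adjusted p = 1.04e-15). Gstp1, the pi-class transferase that is low in normal adult rat hepatocytes, read 1.79, 2.01, 1.35, 2.56 and 2.21 after PMCol and from -0.45 to -0.23 with a median of -0.39 in vehicle animals. Replicate 3 was the lowest treated animal and still stood above all vehicle animals, and the rise was 2.36 ± 0.15. In all, 11 of 18 measured transferases rose and 1 fell, with a median difference of 0.30. Mgst2 and Gstt1 rose by 1.09 ± 0.13 and 1.00 ± 0.08, whereas Gstm5 fell by 0.39 ± 0.09 and the abundant microsomal Mgst1 had a value of 0.0043 ± 0.04 (adjusted p = 0.955).

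Of 21 genes of glutathione synthesis, recycling and peroxide removal, 8 rose and 4 fell, with a median of 0.05. Gclc and Gclm, the catalytic and modifier subunits of glutamate-cysteine ligase, rose by 0.94 ± 0.09 and 0.72 ± 0.08. Gsr, which reduces oxidised glutathione, gave 0.53, 0.65, 0.67, 0.77 and 0.74 in treated animals against -0.56 to -0.40 with a median of -0.47 in vehicle animals, a rise of 1.15 ± 0.05. The cystine carrier Slc7a11 rose by 0.75 ± 0.15 and Gpx2, a glutathione peroxidase typical of gut epithelium, by 0.86 ± 0.18. Chac1, which degrades glutathione inside the cell, fell by 1.14 ± 0.19, and Dpep1, which splits its breakdown products outside, by 0.54 ± 0.14. NADPH is the reductant of these steps. Malic enzyme Me1, one of its cytosolic sources, rose by 2.06 ± 0.13, with treated animals at 1.05, 1.21, 1.32, 1.50 and 1.48 and vehicle animals from -1.08 to -0.51 with a median of -0.72. Tkt, transketolase of the pentose phosphate pathway, rose by 0.81 ± 0.10, in a list of 12 with 4 rises and 1 fall.

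Among genes whose groups did not overlap and whose symbol is not provisional, the largest rise was that of an aldehyde reductase. Akr1b8, an aldo-keto reductase of fatty and retinoid aldehydes, read 3.73, 5.28, 4.72, 5.15 and 5.26 in treated animals and from -0.41 to 0.31 with a median of -0.19 in vehicle animals. The lowest treated animal was replicate 1, still far above the vehicle range, and the difference of 4.97 ± 0.23 is a fold of 31.4. Akr1b7, a close relative, gave 2.92, 4.13, 3.36, 3.40 and 3.98 after PMCol, against -0.31 to -0.13 with a median of -0.22. Akr7a3, the aflatoxin aldehyde reductase, rose by 2.66 ± 0.14 and Akr1b10 by 1.19 ± 0.10. In all 8 of 16 aldo-keto reductases rose and 3 fell. The fallen ones belong to the steroid-reducing Akr1c group and were led by Akr1c19 at -0.79 ± 0.13. Akr1b probes can be shared between close copies, so the split among Akr1b7, Akr1b8 and Akr1b10 is uncertain. Nqo1, which reduces quinones in a single step of 2 electrons, read 1.39, 1.51, 1.65, 1.68 and 1.70 in treated and from -1.27 to -0.80 with a median of -1.03 in vehicle animals, a 6.11-fold rise. Among 20 NRF2 enzymes 12 rose and 0 fell, all 12 without overlap between the groups. Beyond Nqo1 these included the carbonyl reductase Cbr1 at 0.97 ± 0.12, biliverdin reductase B (Blvrb) at 0.83 ± 0.17, microsomal epoxide hydrolase Ephx1 at 0.83 ± 0.07, sulfiredoxin Srxn1 at 0.60 ± 0.06 and Keap1, the inhibitor of NRF2 itself, at 0.57 ± 0.04.

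Carboxylesterases of group 2 rose together. Ces2a, Ces2c and Ces2e, which hydrolyse esters in the endoplasmic reticulum, rose by 2.19 ± 0.07, 3.71 ± 0.15 and 2.62 ± 0.12. Ces2a lay in a narrow band of 1.04, 1.04, 1.13, 1.10 and 1.17 in treated animals against -1.25 to -0.83 with a median of -1.13 in vehicle animals. Ces1d, of the other main hepatic group, had a value of -0.14 ± 0.07 (adjusted p = 0.198). Of 15 esterases and related hydrolases 6 rose and 0 fell. Among P450s of families 1 to 3, 11 of 39 rose and 7 fell, and without vehicle replicate 1 the falls numbered 11. Cyp2b2 and Cyp2b1, markers of CAR activity, rose by 2.24 ± 0.16 and 1.99 ± 0.18. Cyp2b2 read 0.54, 0.38, 0.45, 0.40 and 0.54 in treated animals and from -2.48 to -1.31 with a median of -1.71 in vehicle animals, so the vehicle animals were the more spread. Cyp1a1, the main target of the aryl hydrocarbon receptor, split the treated group: replicates 4 and 5 stood at the top of 0.89, 0.54, 0.48, 2.91 and 2.26, and the vehicle animals ran from -0.90 to -0.80 with a median of -0.84. Its mean rose by 2.26 ± 0.39, while its relative Cyp1a2 had a value of -0.06 ± 0.08 (adjusted p = 0.651). Por, the reductase that feeds electrons to all of them, rose by 0.61 ± 0.12. Cyp3a9, which is also in the female-predominant list, and Cyp2c11 fell by 1.25 ± 0.28 and 0.68 ± 0.17. Cyp3a23-3a1, another member of family 3A, also passed the threshold, and its value is not given here. Cyp3a9 alone therefore does not stand for family 3A.

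Conjugation and export genes moved both ways. Ugt2b1 and Ugt2a3, glucuronosyltransferases, rose by 1.66 ± 0.09 and 1.26 ± 0.18, and Ugdh, which makes their UDP-glucuronate, by 0.61 ± 0.08. Of the sulfation enzymes, Sult1c3 and Sult1a1 fell by 1.08 ± 0.12 and 0.33 ± 0.08. Their donor is made by Papss1, which rose by 0.63 ± 0.11, and Papss2, which fell by 0.68 ± 0.07. The list held 8 rises and 4 falls among 19 genes. Abcc3, the pump that moves glucuronides into blood, read 1.24, 1.34, 1.34, 1.38 and 1.54 in treated animals and from -3.33 to -2.49 with a median of -3.12 in vehicle animals. No treated animal was within 3 log2 units of the vehicle range, and the rise of 4.40 ± 0.14 is 21.1-fold. Abcc4 and the multidrug pumps Abcb1a and Abcb1b rose by 1.30 ± 0.12, 1.12 ± 0.14 and 1.17 ± 0.24. Of the other clusters of Abcc4, 1 rose by 1.34 ± 0.11 and 1 by 0.61 ± 0.11. The phospholipid flippase Abcb4 and Abcc6 fell by 0.68 ± 0.09 and 0.57 ± 0.07. Of 16 efflux genes 6 rose and 3 fell. Uptake carriers showed 5 falls and 1 rise among 13, with the organic anion carrier Slc22a7 at -0.72 ± 0.07 and Slc22a8 at -0.69 ± 0.12. The bile salt carrier Slc10a1 had a value of -0.14 ± 0.07 (adjusted p = 0.19).

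**Figure D2:**
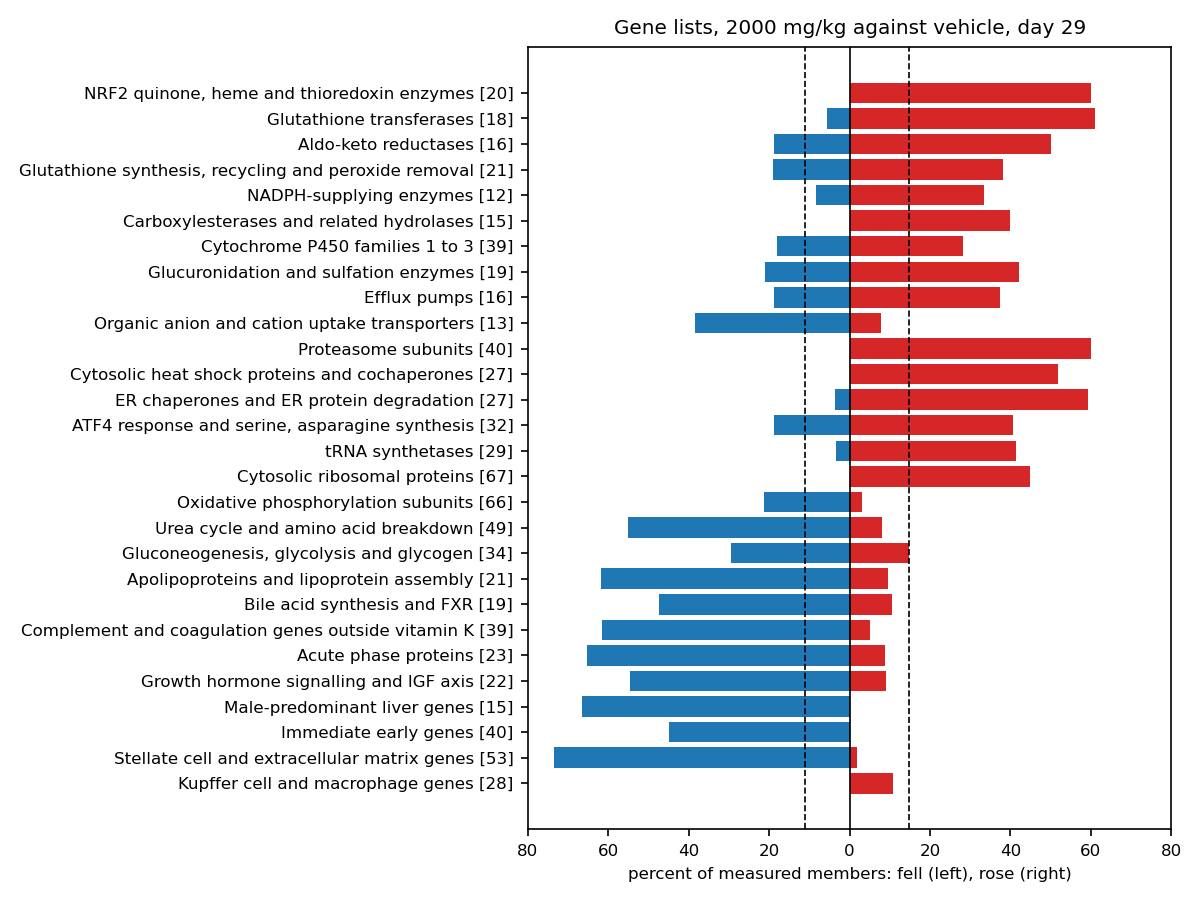
Percent of measured members that rose (right) and fell (left) in 28 gene lists after 28 doses of 2000 mg/kg, with the number measured in brackets. Dashed lines mark the shares over all 14324 genes, 14.9% and 11.2%; the stellate list reaches farthest to the left with 39 of 53 and the list of NRF2 enzymes and that of proteasome subunits reach 12 of 20 and 24 of 40 to the right.

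The ATF4 list moved in both directions: of 32 members 13 rose and 6 fell, with a median of 0.16. Among the risen, Asns, asparagine synthetase, read 1.36, 1.36, 1.82, 2.07 and 2.27 in treated and from -1.24 to -0.63 with a median of -0.94 in vehicle animals, a difference of 2.69 ± 0.19. Psat1, of serine synthesis, Pycr1, of proline synthesis, and Slc7a5, a carrier of large neutral amino acids, rose by 1.32 ± 0.21, 1.13 ± 0.10 and 1.37 ± 0.13. The second cluster of Psat1 rose less, by 0.42 ± 0.11. Slc7a5 pairs with Slc3a2, which rose by 0.82 ± 0.11. Among the fallen, Ppp1r15a (GADD34), which restores translation by dephosphorylating eIF2-alpha, gave -0.79, -1.06, -1.03, -0.68 and -1.32 after PMCol against 0.41 to 1.04 with a median of 0.86, a fall of 1.76 ± 0.25. Chac1 and the glutamine carrier Slc38a2 fell by 1.14 ± 0.19 and 1.17 ± 0.12. Atf3 varied widely, at 0.58, -1.68, -2.65, 0.22 and -2.07 in treated and from -0.19 to 1.15 with a median of 0.91 in vehicle animals, so its value of -1.83 ± 0.63 has a large error. The call of Atf3 (adjusted p = 0.0368) was lost without any 1 of vehicle replicates 1, 3, 5 and 6 and treated replicates 2, 3 and 5.

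A response element for ATF4 and C/EBP factors, TGATGNAAN on either strand, stood in promoters of both directions. It is shown in capitals for Pycr1, which rose, and Chac1, which fell.
Pycr1: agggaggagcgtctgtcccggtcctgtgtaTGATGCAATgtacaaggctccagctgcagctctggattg
Chac1: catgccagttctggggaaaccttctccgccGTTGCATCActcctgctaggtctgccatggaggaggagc
They lie at chr10:106420905-106420973 (minus strand) and chr3:126795933-126796001 (plus strand) of GRCr8. The element was found in 4 of 12 promoters of risen ATF4 members and 1 of 5 of fallen ones. It was found in 1044 of all 27457 promoters of this length and in 349 of the 11806 of measured genes.

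**Figure D3:**
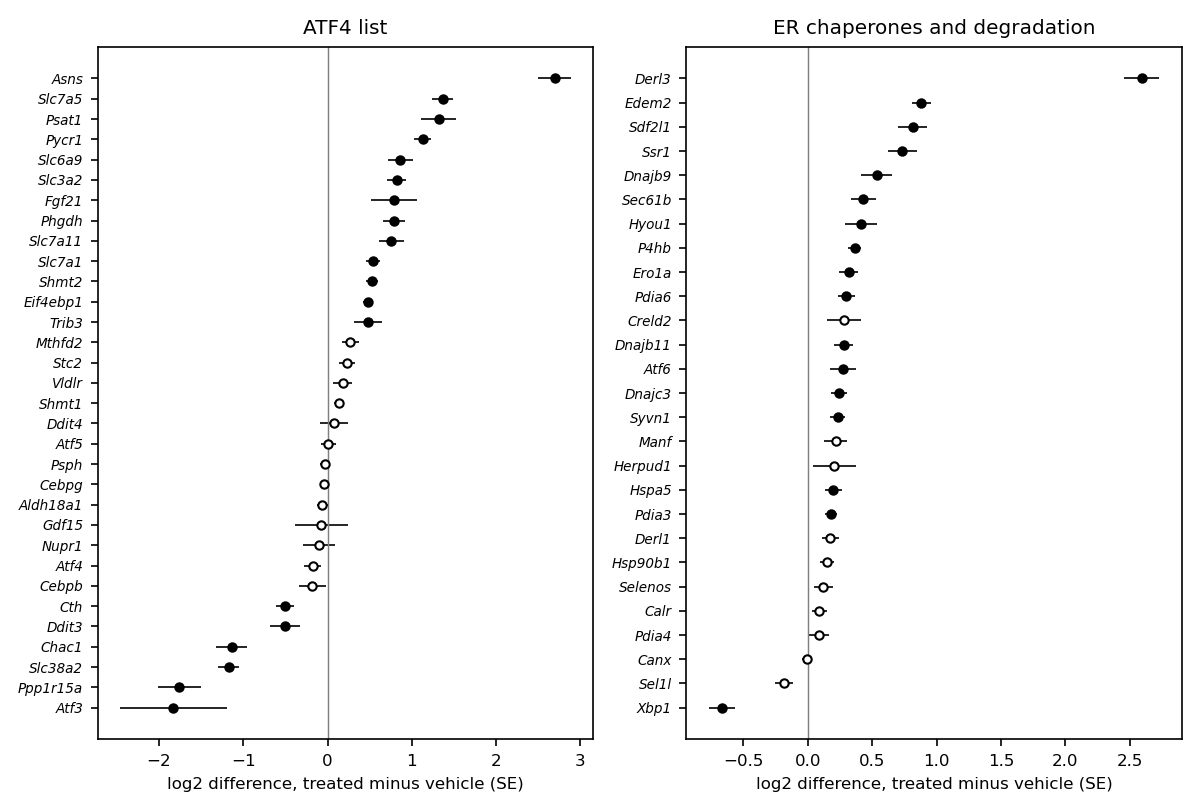
Difference between treated and vehicle means (log2, horizontal axis) with SE bars for the measured members of the ATF4 list and of the list of ER chaperones and degradation genes. Filled points passed an adjusted p of 0.05 and open points did not; Asns at 2.69 and Derl3 at 2.59 lie farthest right and Atf3 at -1.83 and Ppp1r15a at -1.76 farthest left.

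Genes of protein quality control and synthesis rose by small amounts in large numbers. Derl3, part of the channel that returns misfolded proteins from the endoplasmic reticulum, read 1.53, 1.54, 2.24, 1.95 and 2.15 in treated and from -1.05 to -0.55 with a median of -0.67 in vehicle animals, a 6.03-fold rise. Edem2 and the ER proteins Sdf2l1 and Ssr1 rose by 0.88 ± 0.07, 0.82 ± 0.11 and 0.73 ± 0.11. Xbp1, the transcription factor of the unfolded protein response, fell by 0.67 ± 0.10, and Herpud1 had a value of 0.21 ± 0.17 (adjusted p = 0.434). In this list 16 of 27 genes rose and 1 fell, and Hspa5 (BiP), its main chaperone, rose by only 0.20 ± 0.07. The call of Hspa5 was lost without any 1 of vehicle replicates 1, 2 and 3 and treated replicates 4 and 5. Proteasome subunits rose in 24 of 40 cases with a median of 0.25 and fell in 0. Psmd14, the lid deubiquitinase, rose by 0.96 ± 0.15, Psmd5, an assembly chaperone, by 0.69 ± 0.07 and Psmb5, a catalytic subunit, by 0.57 ± 0.13, while the immunoproteasome subunit Psmb8 had a value of -0.14 ± 0.14 (adjusted p = 0.539). Cytosolic heat shock genes rose in 14 of 27 cases, with the small heat shock protein Cryab at 1.27 ± 0.19 and the cochaperone Bag3 at 0.74 ± 0.08. Cytosolic ribosomal proteins rose in 30 of 67 cases and fell in 0, among them Rplp0 at 0.42 ± 0.05 and Rpl36 at 0.41 ± 0.09. Their rises were at most 0.42, and their clusters can share probes with processed copies. Of 29 tRNA synthetases 12 rose and 1 fell, the fall being Aars1 at -0.30 ± 0.06 and the largest rise Farsb at 0.59 ± 0.14. Of 66 subunits of oxidative phosphorylation 14 fell and 2 rose, with Ndufa2 at -0.51 ± 0.13, but without 2000 mg/kg replicate 4 only 9 fell.

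Lipid genes moved both ways. Of 31 genes of fatty acid synthesis, desaturation and triglyceride storage 8 rose and 6 fell. Scd, the stearoyl-CoA desaturase that makes monounsaturated fatty acids, gave -1.97, -1.95, -1.45, -1.85 and -2.30 in treated animals against 0.09 to 0.90 with a median of 0.57 in vehicle animals, a fall of 2.41 ± 0.34. Slc13a5, which imports citrate, fell by 1.09 ± 0.22. Elovl6, the elongase acting on palmitate, and the desaturase Fads1 rose by 1.67 ± 0.21 and 0.89 ± 0.11. Of 13 thioesterases and N-acyltransferases of acyl-CoA 7 rose and 3 fell. Acot1, a cytosolic acyl-CoA thioesterase, was spread over 1.30, 3.79, 0.55, 2.78 and 2.60 in the treated group, with replicate 3 lowest, and ran from -0.97 to -0.08 with a median of -0.85 in vehicle animals, a rise of 2.90 ± 0.36. Acnat2, an acyl-CoA amino acid acyltransferase, fell by 2.50 ± 0.22. Among PPAR-alpha targets and oxidation enzymes, Aqp7 and Cd36, for glycerol and fatty acid uptake, rose by 1.56 ± 0.24 and 1.46 ± 0.23. Acsm3 and Acadm, of medium-chain acyl-CoA activation and oxidation, fell by 1.69 ± 0.14 and 0.33 ± 0.06, in a list with 12 rises and 10 falls among 39. Of 21 lipoprotein genes 13 fell and 2 rose. Apoa4 fell by 1.61 ± 0.24, hepatic lipase Lipc by 0.95 ± 0.07 and Apom by 0.77 ± 0.07. The risen members were the sorting receptor Sort1 at 1.15 ± 0.14 and Mttp, which loads lipid on apolipoprotein B, at 0.49 ± 0.06, and Apob itself had a value of -0.06 ± 0.03 (adjusted p = 0.224). Of 19 bile acid genes 9 fell and 2 rose, the falls being led by Slc27a5, which activates bile acids for conjugation, at -1.22 ± 0.13. Insig1, which holds back sterol synthesis, fell by 1.33 ± 0.18, and the last synthesis enzyme Dhcr7 rose by 0.80 ± 0.12 in a list with 10 rises and 3 falls among 25.

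Genes of amino acid breakdown mostly fell. Sds, serine dehydratase, read -1.66, -2.91, -3.42, -4.05 and -3.08 in the treated animals and from 0.12 to 0.85 with a median of 0.41 in vehicle animals. Replicate 1 kept the most, and the mean fell 11.2-fold. Oat, Gnmt, Gldc and Got1, for ornithine, glycine and aspartate, fell by 1.62 ± 0.17, 1.37 ± 0.12, 1.29 ± 0.15 and 1.29 ± 0.15. Hal, which starts histidine breakdown, and the urea cycle enzyme Asl fell by 1.03 ± 0.14 and 0.88 ± 0.07. Hibch, of valine breakdown, rose by 1.08 ± 0.10. Of 49 genes 27 fell and 4 rose. In the glucose list G6pc1 and Pck1, which release and start the making of glucose, fell by 0.99 ± 0.22 and 0.58 ± 0.08, and pyruvate kinase Pklr by 0.77 ± 0.06. Aldoa and Slc2a1, forms typical of non-hepatic glycolysis, rose by 0.68 ± 0.08 and 0.79 ± 0.16, for 5 rises and 10 falls among 34. Of 39 genes of complement and clotting 24 fell and 2 rose, the fallen including C1s at -1.10 ± 0.19 and Serpind1 at -0.75 ± 0.11. Acute phase genes fell in 15 of 23 and rose in 2, Socs3 and Lcn2, at 0.73 ± 0.16 and 0.80 ± 0.22. Il1rn, the interleukin-1 receptor antagonist, fell by 1.33 ± 0.22.

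PMCol shares its ring with vitamin E, so genes that handle vitamins E and K were read as a list, and 10 of 19 fell and 2 rose. Afm, afamin, a plasma protein that binds vitamin E, fell by 0.62 ± 0.06, and Sec14l2, which binds tocopherol in the cytosol, by 0.42 ± 0.07. Cyp4f4, of the P450 family that shortens the tail of tocopherol, fell by 0.39 ± 0.08. Ttpa, the tocopherol transfer protein that loads vitamin E into lipoproteins, fell by 0.18 ± 0.06, and that call was lost without any 1 of vehicle replicate 6 and treated replicates 4 and 5. The risen members act on vitamin K: Ggcx, the carboxylase that uses it, rose by 0.59 ± 0.07 and Vkorc1l1, a reductase of its epoxide, by 0.46 ± 0.07. The gamma-carboxylated proteins Gas6 and Proc fell by 0.49 ± 0.13 and 0.36 ± 0.05.

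Of genes of hepatocytes near the portal vein 14 of 20 fell and 0 rose. They include Sds, Gldc, Hal, Asl and G6pc1, given above among amino acid and glucose genes, and Cps1, which starts the urea cycle, at -0.39 ± 0.06. Of genes of the central vein side 7 of 23 fell and 2 rose. Rgn, regucalcin of ascorbate synthesis, fell by 0.91 ± 0.17 and Rhbg, an ammonia channel, rose by 0.92 ± 0.18. The difference between these lists was not tested. Of hepatocyte-defining genes 7 of 14 fell and 0 rose, with the asialoglycoprotein receptor subunits Asgr1 and Asgr2 at -0.60 ± 0.08 and -0.50 ± 0.07. Alb and Apob, also in this list, were not called. The list mean per animal was -0.15 to -0.08 in treated and 0.04 to 0.13 in vehicle animals.

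Growth hormone acts on liver through STAT5, and in rats its pulses set male and female patterns. Socs2, a feedback inhibitor and STAT5 target, gave -0.60, -0.96, -0.61, -1.47 and -1.28 in treated and from 0.62 to 1.79 with a median of 1.17 in vehicle animals, a fall of 2.21 ± 0.34. Onecut1 (HNF6), a growth hormone-responsive factor, fell by 2.19 ± 0.32 with -0.96, -0.82, -1.08, -1.42 and -1.17 in treated and 0.88 to 1.60 with a median of 0.93 in vehicle animals. Igf1 fell by 0.44 ± 0.06, and the binding proteins Igfbp1, Igfbp2 and Igfbp3 by 2.14 ± 0.26, 1.50 ± 0.18 and 1.53 ± 0.12. The receptor Ghr had a value of -0.16 ± 0.11 (adjusted p = 0.349). Of 22 axis genes 12 fell and 2 rose. The male-predominant list had 10 falls and 0 rises among 15. Stac3 read -0.93, -1.33, 0.51, -2.05 and -1.96 in treated and from 1.06 to 2.36 with a median of 1.54 in vehicle animals, a fall of 2.81 ± 0.38, and replicate 3 stood above the other treated animals. Dhrs7l1, a short-chain dehydrogenase, read -1.41, -3.83, -2.26, -3.00 and -3.67 in treated and from -0.03 to 0.69 with a median of 0.42 in vehicle animals. Replicate 1 was its highest treated animal, and the fall was 3.22 ± 0.32. Hao2, a male-predominant hydroxyacid oxidase, fell by 1.76 ± 0.12. Female-predominant genes did not move as one: 4 of 16 rose and 5 fell. Prlr, the prolactin receptor, stood at 1.81, 1.95, 1.78, 1.84 and 1.99 in treated and from -1.24 to -0.74 with a median of -1.09 in vehicle animals, a rise of 2.93 ± 0.26, whereas Sult1c3 fell by 1.08 ± 0.12 and Cyp2c12, the classical female P450, had a value of 0.03 ± 0.19 (adjusted p = 0.946).

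Most stellate cell and matrix genes fell. Lrat, which esterifies retinol in stellate cells, read -0.80, -0.90, -0.98, -0.53 and -0.93 in treated and from 0.08 to 0.84 with a median of 0.61 in vehicle animals, a 2.63-fold fall. Lox, which crosslinks collagen, ran over 0, -0.31, -0.68, -0.63 and -0.76 after PMCol and from 0.04 to 2.21 with a median of 1.88 in vehicle animals. Vehicle replicate 1 was lowest of its group for Lox and close to the highest treated animal, and the fall was 1.99 ± 0.30. The receptors Pdgfra and Pdgfrb fell by 0.88 ± 0.13 and 0.97 ± 0.10, reelin (Reln) by 0.70 ± 0.14, Colec11 by 0.71 ± 0.13 and the growth factor Hgf by 0.51 ± 0.13. Col3a1, Col1a2 and Col1a1, fibrillar collagens, fell by 0.86 ± 0.11, 0.66 ± 0.11 and 0.45 ± 0.09. In all 39 of 53 measured genes fell and 1 rose, with a median of -0.46, and 28 had no overlap between the groups. Their mean per animal was -0.19, -0.29, -0.36, -0.26 and -0.33 in treated animals and 0.06 to 0.40 over vehicle animals. In these bulk samples fewer cells of a type and less RNA per cell cannot be told apart. Of the other cell types, Kupffer cell genes showed 3 rises and 0 falls among 28, with means per animal of -0.58 to 0.41 and -0.48 to 0.53 in treated and vehicle animals. Vehicle replicate 2 alone gave the 0.53, and the other vehicle animals lay from -0.48 to -0.13. Endothelial markers showed 1 rise and 3 falls among 21, with means of -0.33 to 0.03 and -0.19 to 0.15, and Rspo3, a WNT agonist of central vein endothelium, fell by 0.90 ± 0.12. Vehicle replicate 2 also gave the 0.15, with the other vehicle animals from -0.19 to -0.05. Bile duct markers showed 3 rises and 0 falls among 18 with Epcam at 0.88 ± 0.12. The 16.7% that rose lay near the 14.9% over all genes. Lists for T, B and NK cells and for neutrophils and mast cells had 0 calls among 25 and 17 by limma, where the unadjusted p was under 0.05 for 1 and 0. Erythrocyte markers showed 2 rises among 10, and mesothelial and adipocyte markers 1 fall among 8, that of Wt1, a call lost without treated replicate 1. The part of cell number in these changes was not tested.

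Retinoid genes beyond Lrat moved both ways. Aldh1a1, which oxidises retinaldehyde to retinoic acid, rose by 1.73 ± 0.11, with 0.51, 0.77, 0.85, 0.59 and 0.54 in treated and from -1.51 to -0.75 with a median of -1.10 in vehicle animals. Cyp26a1, which breaks retinoic acid down and is a retinoic acid target, gave 1.03, 1.26, 0.18, 1.05 and 1.61 against -0.71 to -0.24 with a median of -0.49, a rise of 1.52 ± 0.17. The dehydrogenases Rdh16 and Rdh7 fell by 0.68 ± 0.13 and 0.43 ± 0.08. The list held 5 rises and 5 falls among 25.

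**Figure D4:**
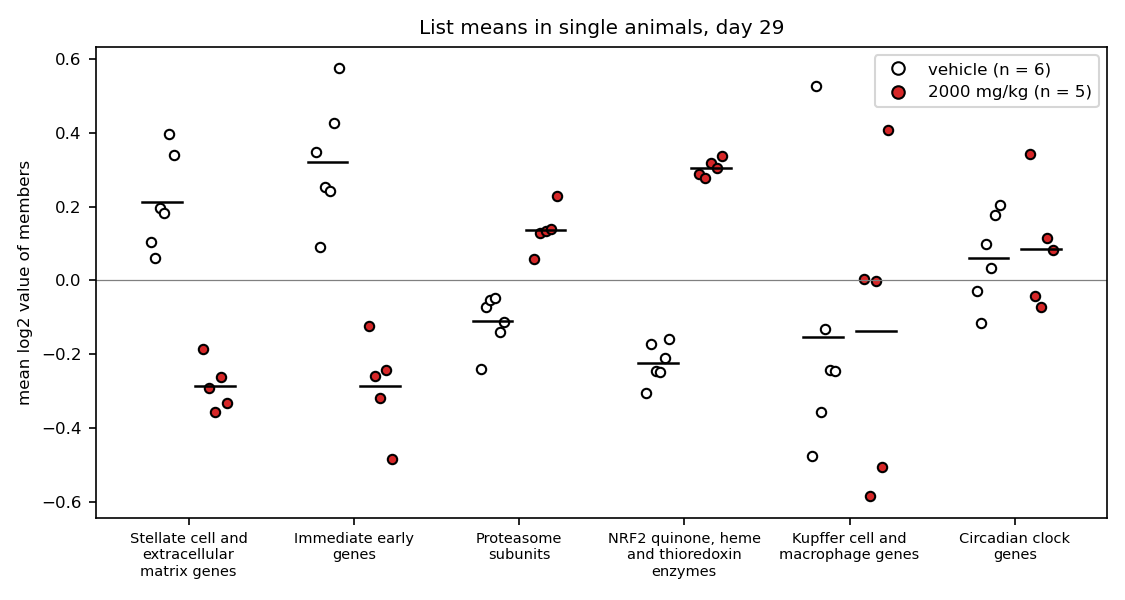
Mean log2 value of all measured members of 6 gene lists in each of the 6 vehicle (open points) and 5 treated (filled points) animals, with the group mean as a bar. The stellate and immediate early lists separate without overlap, at means of -0.29 against 0.21 and -0.29 against 0.32, while the Kupffer cell and clock lists overlap over most of their range.

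Immediate early genes are switched on within minutes by growth factors, stress or handling and need no new protein. Of 40 measured, 18 fell and 0 rose, and 15 had no overlap. Egr1, a zinc finger factor downstream of ERK, read -1.19, -1.31, -2.03, -1.25 and -2.92 in treated and from 0.67 to 1.85 with a median of 0.98 in vehicle animals, a 7.49-fold fall. Nr4a1 and Jun gave -1.04, -1.25, -1.44, -1.44 and -1.41 and -0.54, -1.12, -0.83, -0.54 and -1.26 in treated animals, with vehicle ranges of 0.79 to 1.88 with a median of 1.14 and of 0.59 to 1.27 with a median of 0.90. Their falls were 2.59 ± 0.40 and 1.78 ± 0.31. Dusp1 and Zfp36, which shut off the kinases and the messages, fell by 1.39 ± 0.21 and 0.85 ± 0.18. Fos stood at -0.68 ± 0.27 (adjusted p = 0.0709) and Myc at -0.66 ± 0.26 (adjusted p = 0.066), both short of the threshold. Dusp6, the ERK phosphatase that tracks ERK output, fell by 1.76 ± 0.21, cyclin D1 (Ccnd1) by 1.12 ± 0.15, the inhibitor Spry1 by 0.78 ± 0.09 and the receptor Egfr by 0.49 ± 0.08, with 8 falls and 1 rise among 21 ERK feedback genes. Serum response elements (the CArG box, both strands) were found in 3 of 15 promoters of fallen immediate early genes. They were found in 1.64% of all promoters and 1.28% of those of measured genes. They are shown in capitals for Egr1, with 2 boxes, and for Zfp36.
Egr1: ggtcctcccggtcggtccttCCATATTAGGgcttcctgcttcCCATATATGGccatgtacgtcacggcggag
Zfp36: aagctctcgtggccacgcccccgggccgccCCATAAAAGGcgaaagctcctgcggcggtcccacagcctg
These lie at chr18:26736953-26737024 (plus strand) and chr1:92799101-92799170 (minus strand) of GRCr8.

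Clock genes differed between the groups too, and the time of day of killing is not given in the labels. Npas2, a partner of BMAL1 in the positive limb, read -0.71, -0.80, -1.03, -1.06 and -1.48 in treated and from 0.24 to 0.79 with a median of 0.56 in vehicle animals, a fall of 1.56 ± 0.13, and Nfil3 fell by 1.41 ± 0.22. Dbp, an output of the clock, gave 1.66, 0.43, 1.25, 0.85 and 1.29 against -0.86 to 0.23 with a median of -0.31, a rise of 1.40 ± 0.20, with Per3 at 1.34 ± 0.19 and Nr1d1 at 0.99 ± 0.25. Per2 had a value of 0.47 ± 0.17 (adjusted p = 0.0515). In all 4 of 16 rose and 4 fell. Among glucocorticoid response genes, also timed and stress-driven, Tsc22d3 and Sgk1 fell by 1.41 ± 0.23 and 0.93 ± 0.20 and Fkbp5 rose by 1.33 ± 0.30, with 10 falls and 2 rises among 19. The part of killing time or handling in the falls of immediate early genes was not tested.

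Some strong responders belong to none of the detoxification lists. Snx10, a sorting nexin of endosomes, read 1.30, 1.68, 1.45, 1.69 and 1.92 in treated and from -1.50 to -0.66 with a median of -1.16 in vehicle animals. Adgrg2, an adhesion receptor, and Coro6, a coronin, rose by 2.55 ± 0.21 and 2.48 ± 0.12. The palmitoyltransferase Zdhhc2 rose by 1.86 ± 0.08, Ica1, an islet autoantigen, by 2.02 ± 0.15 and Grin2c, a glutamate receptor subunit, by 1.99 ± 0.17. Falls outside those lists included Nox4, a hydrogen peroxide-making oxidase, at -2.43 ± 0.22, Wsb1, a ubiquitin ligase adaptor, at -1.99 ± 0.17, Trib1, a pseudokinase, at -1.66 ± 0.17 and Car3, an abundant hepatocyte carbonic anhydrase, at -1.99 ± 0.31.

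Against 200 mg/kg for the same 28 days, 1163 genes were higher at 2000 mg/kg and 674 lower, 8.12% and 4.71% of those tested. Without 2000 mg/kg replicate 5 the count over all clusters went from 2704 to 1755. The largest excess among genes without a provisional symbol was that of Akr1b8, at 4.84 ± 0.23 (adjusted p = 5.64e-14). It stood 0.13 ± 0.22 above vehicle at 200 mg/kg and 4.97 ± 0.23 at 2000 mg/kg, comparisons that share the vehicle animals. Akr1b7, Prlr, Derl3 and Gstp1 were higher at 2000 than at 200 mg/kg by 3.59 ± 0.25, 2.52 ± 0.26, 1.98 ± 0.14 and 1.98 ± 0.15, and Sds, Dhrs7l1, Mup5 and Scd lower, at -3.04 ± 0.32, -2.95 ± 0.32, -2.51 ± 0.25 and -2.28 ± 0.34. Other genes rose at both doses. Abcc3, Cyp2b2 and Cyp2b1 had differences from vehicle of 3.11 ± 0.13, 1.84 ± 0.15 and 1.78 ± 0.17 there. Cyp2b1 differed between the doses by 0.21 ± 0.18 (adjusted p = 0.554) and Cyp2b2 by 0.40 ± 0.16 (adjusted p = 0.112). Stellate and matrix genes, with 39 falls at 2000 mg/kg, had 2 at 200 mg/kg, where 1.80% of all genes fell and 1.86% rose.

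The effect of 2000 mg/kg at day 29 was set against that at day 8 by the difference of the differences. It was higher at day 29 for 78 genes and lower for 55, 0.545% and 0.384%. This count rests on few animals: over all clusters it was 212, from 76 without treated day 8 replicate 1 to 563 without vehicle day 29 replicate 2, and 620 without vehicle replicates 1 and 2 together. Ces2e rose by 1.41 ± 0.12 at day 8 and 2.62 ± 0.12 at day 29, a change of 1.21 ± 0.17 (adjusted p = 0.00175). Abcc3 gained 0.86 ± 0.19 and Dbp 1.21 ± 0.27, Dbp having been at 0.20 ± 0.19 at day 8. Among the falls, Igfbp1 stood at 0.05 ± 0.25 at day 8 and -2.14 ± 0.26 at day 29, a change of -2.18 ± 0.37 (adjusted p = 0.00458). Jun, Ppp1r15a and Lrat differed by -1.76 ± 0.43, -1.42 ± 0.35 and -0.87 ± 0.19 (adjusted p = 0.047, 0.047 and 0.0324). The calls of Jun and Ppp1r15a were lost without any 1 of 20 of the 23 animals of these 4 groups, those of Dbp and Lrat without any 1 of 9 and that of Abcc3 without any 1 of 6, and all 5 were lost after quantile normalization of the arrays, where the value of Abcc3 was 0.42 (adjusted p = 0.519). Ces2e and Igfbp1 kept their calls without each of the 23 animals in turn. At day 8, when 11.8% of all genes fell and 11.6% rose, the stellate list had 15 falls, against 39 at day 29, and the immediate early list 7 against 18. The Kupffer cell list had 22 falls at day 8 and 0 at day 29, where vehicle replicate 2 stood highest, at a list mean of 0.53. These list counts come from separate comparisons at each day, and their change between days was not tested.

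**Figure D5:**
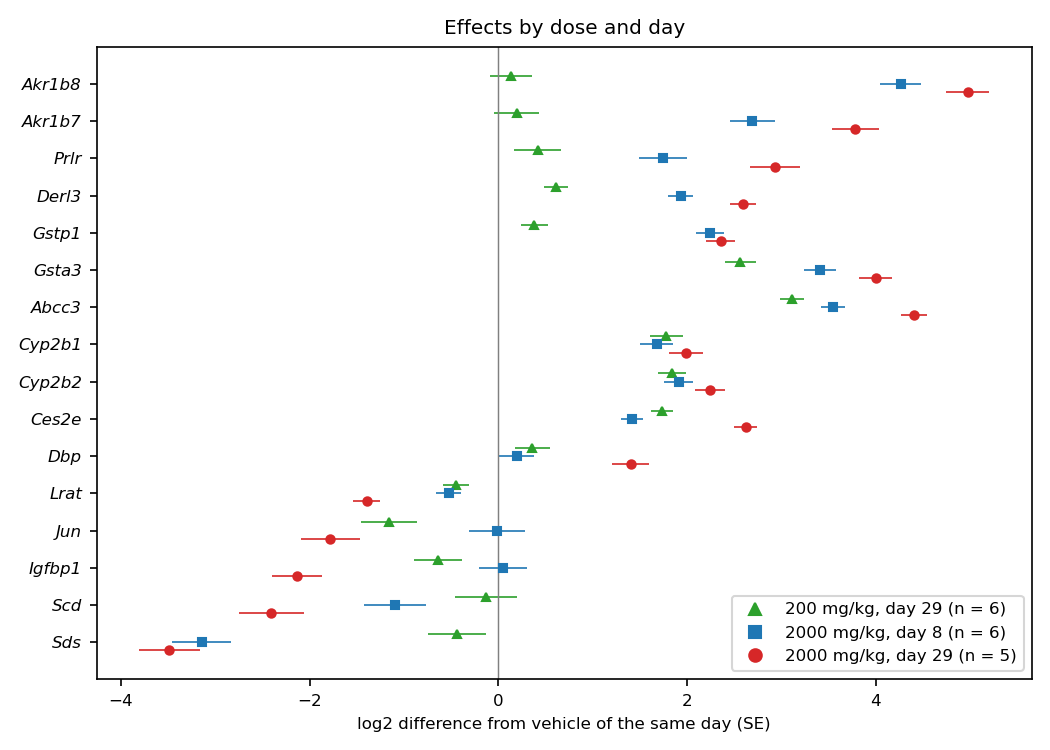
Differences from the matched vehicle group (log2, horizontal axis) with SE bars for 16 genes after 200 mg/kg for 28 doses (triangles), 2000 mg/kg for 7 doses (squares) and 2000 mg/kg for 28 doses (circles). The triangles and circles share the same vehicle animals; for Akr1b8 they stand at 0.13 and 4.97, and for Igfbp1 the square stands at 0.05 and the circle at -2.14.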

How the data were processed

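RNA of 1 piece of left liver lobe per rat was hybridised to 1 array, and separate animals are the replicates. The deposited file holds log2 values of 29 arrays over 27342 clusters, with the median of every cluster at 0. PLIER and MAS5 are named in the submitters' processing notes, with their role and the genome build not given in the sources used here. This centring leaves no absolute levels, so depth and brightness of a gene cannot be given. Precision is limited by how many arrays there are. Values whose decimals all lie on a fixed binary grid show a stored log2 value of 8 or more, which held for 7529 clusters.

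The deposited log2 values were fitted without further normalization in limma 3.58.1 (R 4.3.3) with 5 groups over all 29 animals, eBayes and Benjamini-Hochberg adjustment over all clusters at 0.05. The groups were vehicle and 2000 mg/kg at both days and 200 mg/kg at day 29. The dose comparison and the difference between days come from the same model. A gene with several clusters (499 genes) is given by the cluster with a stored value of 8 or more, then by the lowest probe number. Of 1615 symbols in 59 lists, 1376 were matched, 59 of them by a current symbol or synonym. The members and lists were chosen with earlier results of these data known. Genes were named by rule: the 25 largest rises and falls without overlap between groups, up to 8 called members with the largest differences and the core members of each list, the 6 largest of each direction for dose and for day, and the 5 called genes with the widest treated spread. Outside the list part of this rule, provisional symbols (LOC, RGD or MGC with a number, or clone names ending in Rik) were left out. Acadm, Colec11, Gstm5, Slc3a2 and Zfp36 were chosen after their values were seen. The labels do not state that equal replicate numbers pair animals, so the main fit has no block. Residual correlations between the 2 groups for equal numbers were -0.181, -0.278, -0.221, 0.0574 and -0.012, which cannot settle pairing. Promoters came from RefSeq (GRCr8) and matched 11806 genes. Python 3.11.15 with pandas 2.3.3 and matplotlib 3.10.9 made motif counts and figures.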

Additional observations from a re-analysis of the deposited data

Results flagged for a closer look

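For 200 of the named genes, both groups at day 29 were searched for 1 animal far from the rest. Of 400 such groups of values 20 held one, and chance alone gives about 1 in 20. Vehicle replicate 1 accounted for 10 of the 20: it stood high for Akr1b8 at 0.31, Gpx2 at 0.18 and Ndufa2 at 0.88. It stood low for Serpind1 at 0.11, and was also lowest for Ghr, Slc10a1, Psmd14, Ggcx, Isg20 and Vkorc1l1, at -0.36, -0.35, -1.17, -0.46, -0.64 and -0.40. Other vehicle animals apart were replicate 2 for Asgr2 at 0.014 and Tsc22d3 at -0.23, replicate 3 for Sult1a1 at 0.25 and replicate 6 for Spry1 at 0.74. Of the treated animals, replicate 3 stood apart for Aqp7 at -0.11, Asgr1 at -0.14, Fkbp5 at 0.050 and Xbp1 at -0.18, and replicate 5 for Col3a1 at -0.58 and Nfil3 at -1.09.

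The effect of 2000 mg/kg differed between day 8 and day 29 for 15 named genes by limma's test of the difference. It was higher at day 29 for Ces2e and Dbp, each by 1.21, Socs3 by 1.00, Abcc3 by 0.86, Isg20 by 0.66 and Ces2a by 0.58. It was lower at day 29 for Igfbp1 at -2.18, Jun at -1.76, Ppp1r15a at -1.42, Nfil3 at -1.27, Trib1 at -1.17, Igfbp3 at -1.04, Slc38a2 at -1.02, Lrat at -0.87 and Spry1 at -0.72. Runs without single animals are given above only for Ces2e, Igfbp1, Jun, Ppp1r15a, Lrat, Dbp and Abcc3. For the rest, limma's adjusted p was 0.047 for Nfil3, 0.0307 for Socs3, 0.0261 for Isg20 and 0.0236 for Trib1. It was 0.00475 for Spry1, 0.00458 for Slc38a2 and Ces2a and 0.00423 for Igfbp3.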

How the results depend on the processing

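No named gene that was called changed direction under any alternative run, while Cyp2c12 and Mgst1, not called, lay on either side of 0 when single animals were left out. Leaving out each animal in turn gave 4791 to 6313 called clusters for 2000 mg/kg against vehicle (5910 with all animals), 243 to 296 of at least 2-fold (271), 1755 to 2813 for 2000 against 200 mg/kg (2704) and 76 to 563 for the change between days (212). Among the 7529 clusters with stored values of 8 or more, 3464 were called and 122 of at least 2-fold, where fewer clusters were tested. There 15 stellate and 10 immediate early genes fell, against 39 and 18 with all clusters. At an adjusted p of 0.01 the counts were 3754 against vehicle, 1364 between doses and 28 between days. With a minimum fold of 1.2 tested they were 924, 231 and 3. Lists of small changes then lost most calls. Rises went from 30 to 0 for ribosomal proteins, 12 to 0 for tRNA synthetases and 24 to 4 for proteasome subunits. Falls went from 14 to 0 for oxidative phosphorylation, 24 to 3 for complement and clotting and 15 to 3 for acute phase genes. Stellate falls went from 39 to 17 and immediate early falls from 18 to 9. The change between days gave 102 after quantile normalization, 673 with array weights and 620 without vehicle replicates 1 and 2, and the cause was not tested. With the replicate block the counts were 5964, 282, 2736 and 224, and of the named genes Fos and Per2 then passed at adjusted p of 0.0383 and 0.00928. Whether equal replicate numbers pair animals is not stated in the labels. Robust moderation and centring each array on its median changed no call of a named gene. In a fit of only the animals compared, 4724 clusters were called against vehicle, fewer than in any run without 1 animal, and 269 of at least 2-fold. Between doses 2137 were called. Hspa5 and Ttpa then no longer passed, while Fos and Myc against vehicle and Cyp2b2 between doses did. Without vehicle replicates 1 and 2 together Hspa5 was lost and Fos and Slc10a1 passed. Lists with 1 or 2 members on their minor side (ER fallen; stellate, endothelial, bile acid, complement, methionine and oxidative phosphorylation risen; transferases and tRNA synthetases fallen; mesothelial fallen) had 0 to 3 such members when single animals were left out. Quantile normalization gave 5288 called clusters against vehicle, 231 of at least 2-fold, and ended the calls of Atf3 and Hspa5. The further clusters of Abcc4, Acnat2, Cbr1, Insig1, Psat1, Rpl36 and Rplp0 had the direction and call of the one given. Beyond the clusters with stored values of 8 or more, the relative values do not tell a weak signal from a strong one.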

Other observations

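Targets of p53 and the Gadd45 genes showed 10 rises and 3 falls among 22. The kinase Plk3, the death receptor Fas and the ribonucleotide reductase subunit Rrm2b rose by 0.90 ± 0.16, 0.83 ± 0.09 and 0.73 ± 0.10, while Gadd45g, which is also an immediate early gene, fell by 1.58 ± 0.21. Ephx1 is counted in this list as well as among the NRF2 enzymes. Bax, another member, had a value of -0.11 ± 0.09 (adjusted p = 0.47), while its second cluster fell by 0.27 ± 0.07. Interferon response genes showed 7 rises and 1 fall among 38, with a median of 0.24. The 18.4% that rose lay near the 14.9% over all genes, and the 2.63% that fell lay below the 11.2%. The largest rises of this list were those of the exonuclease Isg20 at 1.45 ± 0.10 and of Oasl at 1.23 ± 0.29.

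Of genes that respond to thyroid hormone 6 of 14 fell and 1 rose. Serpina7, thyroxine-binding globulin, fell by 0.73 ± 0.21 and the deiodinase Dio1 by 0.48 ± 0.09, whereas Me1, which NRF2 also regulates, is the member that rose. Among genes of the methionine cycle 8 of 22 fell and 1 rose, with Cbs, which commits homocysteine to cysteine, at -0.52 ± 0.08 and Nnmt, a nicotinamide methyltransferase, at -0.83 ± 0.16.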
